A study of Mus musculus with 8 samples.

Results

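Chemokines are small secreted proteins that draw leukocytes along a gradient, and chemokine receptors are the G protein-coupled receptors through which the leukocytes sense them. They are sorted by the spacing of their leading cysteines into the CXC, CC, CX3C and XC families. In liver they are made by hepatocytes, Kupffer cells, endothelium and stellate cells, and they are known for bringing neutrophils, monocytes and lymphocytes into injured tissue and tumours. The members described here are the probe sets whose platform gene symbol is a single Ccl, Cxcl, Cx3c, Xcl1, Xcr1, Ccr or Cxcr symbol. On the tumour array they were 78 of 45101 probe sets, for 50 of 18194 genes with a single symbol. On the smaller array used for the adenovirus samples they were 66 of 22690 probe sets, for 49 of 12394 genes. All 66 of those probe sets were also on the tumour array. Of the 50 genes, 33 code for ligands and 17 for receptors. Probe sets that carry several symbols, among them those of Ccl19 and Ccl21, were left out by this rule.

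All mice were p53-/- on a C57BL/6J background. Liver carcinomas came from mice that also carried the HBs transgene and were 12 to 15 months old. There were 3 mTERC+ tumours, which keep the telomerase RNA component, and 3 mTERC- tumours, which lack it, each on its own array. The promoter of the transgene is not given in the sources used here. The adenovirus data set held liver taken 48 hours after intravenous infection, with RNA of 3 mice pooled on 1 array for the TRF2DBDM virus and of 3 mice on 1 array for the GFP control virus. TRF2DBDM is a mutant of TRF2, a protein that protects chromosome ends. The values are MAS5 signals, the brightness of a probe set on a linear scale, with a median of 54.5 to 75.1 on the tumour arrays and of 46.1 and 52.5 on the GFP and TRF2DBDM arrays. Levels are log2 of the signal plus 32, and every fold and log2 difference below is on that scale, which understates changes at low signal.

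The labels give hepatocytes as the tissue, while the design describes whole liver and tumour RNA. Hepatocyte markers had a summed signal of 104441 to 157824 over 6 genes on the tumour arrays. Macrophage markers were present too, though not each on every array, with a summed signal of 12607 to 21254 over 14 genes in mTERC- tumours and of 12845 to 70241 in mTERC+ tumours. In RNA of a whole tumour, fewer cells of a type and less RNA per cell cannot be told apart. The array of mTERC- tumour 2 stood apart, where the Gapdh control was 13.8 times as bright at its 3' as at its 5' end, and 0.983 to 1.18 times on the rest. The 18S control was at 318.5 and 349 on mTERC- tumours 2 and 3 and at 11010 to 27810 on the other 4 arrays.

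The promoters of 4 members are shown first, picked from those with large differences in these data, though not by size alone. Ccr4 in the adenovirus pair (log2 ratio 1.06) and Ccl9 in the tumours (log2 difference -1.24) differed more than Cxcl1 (-0.80 and 0.69). Their windows are not shown and held no match to the motifs below. The difference of Cxcl14 did not pass in limma with all tumours kept, and those in the adenovirus pair were not tested. Cxcl9 and Cxcl10 lay at opposite ends of the adenovirus pair with Cxcl1 next to Cxcl10, and Cxcl14 had the largest difference between the tumour groups. Each line gives the 250 bases before the start of the gene in RefSeq (GRCm38.p6), 5′ to 3′ along the gene. Capitals mark matches on either strand to an NF-kB type motif (GGGA, any 2 bases, then TTCC or TCCC), an ISRE type motif of interferon response (GAAA, any 2 bases, GAAA) or a GAS type motif of STAT binding (TTCNNNGAA).
Cxcl1 (chr5:90890995-90891244, plus strand): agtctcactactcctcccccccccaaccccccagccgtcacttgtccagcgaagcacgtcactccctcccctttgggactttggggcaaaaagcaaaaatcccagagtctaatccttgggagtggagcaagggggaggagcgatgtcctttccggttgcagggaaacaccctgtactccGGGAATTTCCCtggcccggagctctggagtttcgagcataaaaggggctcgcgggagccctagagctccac
Cxcl10 (chr5:92348890-92349139, minus strand): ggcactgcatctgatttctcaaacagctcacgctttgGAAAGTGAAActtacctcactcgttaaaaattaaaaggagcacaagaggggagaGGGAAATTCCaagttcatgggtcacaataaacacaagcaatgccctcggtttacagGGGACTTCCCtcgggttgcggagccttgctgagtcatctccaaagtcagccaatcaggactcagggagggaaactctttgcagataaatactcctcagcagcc
Cxcl9 (chr5:92328080-92328329, minus strand): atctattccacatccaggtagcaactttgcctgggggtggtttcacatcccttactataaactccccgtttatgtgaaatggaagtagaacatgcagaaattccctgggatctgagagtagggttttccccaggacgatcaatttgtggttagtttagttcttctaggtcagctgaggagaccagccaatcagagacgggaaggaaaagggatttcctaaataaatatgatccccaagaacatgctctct
Cxcl14 (chr13:56296552-56296801, minus strand): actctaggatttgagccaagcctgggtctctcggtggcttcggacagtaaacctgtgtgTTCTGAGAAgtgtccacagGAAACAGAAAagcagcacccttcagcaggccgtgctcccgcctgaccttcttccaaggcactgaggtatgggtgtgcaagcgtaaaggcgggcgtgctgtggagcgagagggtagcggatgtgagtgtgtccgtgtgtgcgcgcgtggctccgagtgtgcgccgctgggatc
Cxcl1 held an NF-kB type run at positions -71 to -61 relative to the start, in which matches on both strands overlap, and Cxcl10 held 1 at -159 to -150 and 1 at -103 to -94. Cxcl10 also had an ISRE type match at -213 to -204. Cxcl14 had an ISRE type match at -172 to -163 and a GAS type match at -191 to -183, and in the Cxcl9 window none of these letters were found. Of the 50 genes 37 had a promoter in the RefSeq table, and Ccl2 and Cxcl5 were not among them. An NF-kB type match was in 7 of these 37, or 18.9%, against 1.77% of all 32851 promoters. Besides Cxcl1 and Cxcl10 these were Cxcl2, Cxcl3, Ccl1, Ccr3 and Ccr6, and the windows of Cxcl2 and Cxcl3 hold the same overlapping pair, GGGAATTTCC with GGAATTTCCC, as that of Cxcl1. An ISRE type match was in 2, or 5.41%, against 2.98%, and a GAS type match in 4, or 10.8%, against 7.02%. For each motif a member counted if any of its promoters matched, while the share over all promoters counts each promoter singly. Ccl25, Ccl27a and Ccr6 had more than 1 promoter. A match describes these letters and is not a measured site.

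The first comparison asked which chemokine genes differed between carcinomas without and with the telomerase RNA. No member passed. Of the 50 genes 30 had a mean level no lower than the median probe set, which was the level filter, and were tested with limma. With Benjamini-Hochberg adjustment over all 11980 genes tested, 0 of the 30 passed 0.05 in limma, where 0.00835% of all genes did, and the smallest adjusted p of a member was 0.906. At an unadjusted p under 0.05 there were 5 members, or Ccl2, Ccl9, Ccl24, Cxcl5 and Cxcl14, where 5.04% of all genes had such a p. The mean was lower in mTERC- tumours for 15 and higher for 15 members, against 48.6% lower among all genes, and the median log2 difference was -0.01, against 0.02 over all genes. The groups did not overlap for 4 of the 30, against 10.1% of all genes tested, and these were Ccl2 and Ccl24, lower in mTERC- tumours (4.39% of all genes), and Cxcl5 and Ccr2, higher (5.75%). Of 11 genes with more than 1 tested probe set, 7 had probe sets with differences of opposite sign, which were Ccr2, Cxcl12, Cxcl13, Cx3cl1, Ccr1, Cxcl9 and Ccl6. Groups of 3 against 3 cannot give an exact permutation p below 0.1.

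**Figure D1:**
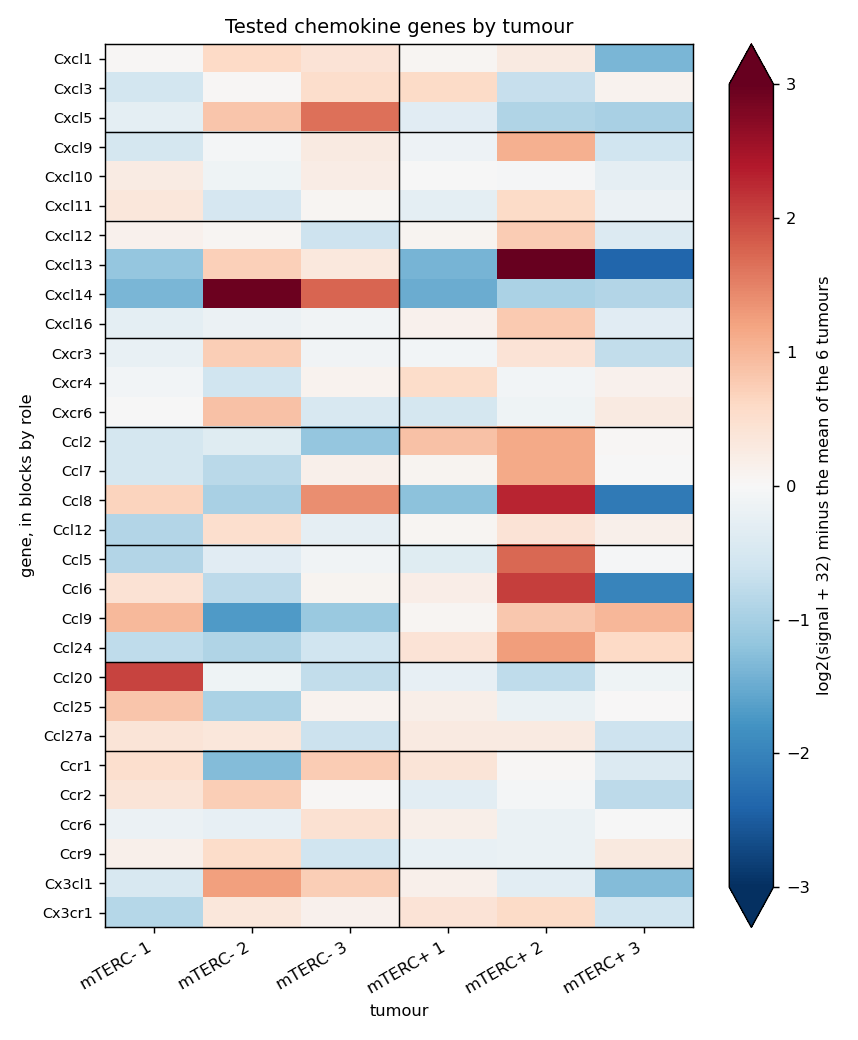
Level of the 30 tested chemokine genes in each of the 6 tumours, as log2(signal + 32) minus the mean of the gene over the 6 tumours, with genes on the vertical axis in blocks by role and tumours on the horizontal axis. Red is above and blue below the mean, and mTERC+ tumour 2 is the highest for 12 genes and mTERC+ tumour 3 the lowest for 11.

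Within the mTERC+ group, tumours 2 and 3 stood at opposite ends for many members. Of the 30 tested genes 12 had their highest level in mTERC+ tumour 2, where 14.2% of all genes tested had theirs. In mTERC+ tumour 3, 11 of the 30 had their lowest level, against 17.1% of all genes. The median level of the 30 genes was 0.34 above the gene's mean over the 6 tumours in mTERC+ tumour 2 and -0.30 relative to it in mTERC+ tumour 3 on the log2 scale. In mTERC- tumours 1, 2 and 3 and mTERC+ tumours 1 and 3 the highest level was held by 4, 8, 3, 2 and 1 members, against 13.8%, 27.2%, 15.3%, 13.6% and 15.9% of all genes. The lowest was held by 3, 8 and 4 members in mTERC- tumours 1, 2 and 3 and by 2 each in mTERC+ tumours 1 and 2, against 15.8%, 22.3%, 14.4%, 16.6% and 13.8%. The 12 genes were Ccl2, Ccl5, Ccl6, Ccl7, Ccl8, Ccl24, Cxcl9, Cxcl11, Cxcl12, Cxcl13, Cxcl16 and Cx3cr1. Markers of some other cell types were high in the same tumour and those of others were not. The summed macrophage signal was 70241 in mTERC+ tumour 2 and 12607 to 36118 in the other 5, with all 14 markers at or above an array median on at least 1 array. The summed signal of 4 B and plasma cell genes was 442.9 there against 130.5 to 234.4. Of these, Cd79b and Jchain were at their highest there, and Ms4a1 and Cd79a were not. The sum of 10 T and NK cell genes was 1062 there against 434 to 938.8. Only Cd3d, Cd3g and Gzma of that list were at their highest in mTERC+ tumour 2. The highest level of Cd3e, Cd4, Cd8a, Gzmb, Ncr1, Nkg7 and Prf1 was in another tumour. The mean log2 deviation of the T and NK cell list was higher in mTERC- tumour 2 (0.43) than in mTERC+ tumour 2 (0.20). Sums of monocyte genes, Ccr2 among them (970.2 against 169.4 to 523.9), and platelet genes (1144 against 430.8 to 554.6) were also highest there. So were those of endothelium (2472 against 725.5 to 2246) and stellate cells (6262 against 2977 to 5491). By mean log2 deviation endothelium was higher in mTERC+ tumour 1 (0.60) than in mTERC+ tumour 2 (0.50). Cholangiocyte genes had their lowest sum there, and hepatocyte genes were not at their highest. Dendritic cell genes summed to 223.6 in mTERC+ tumour 2 against 89.7 to 435.7 in the other 5, and neutrophil genes to 29785 there, below all 3 mTERC- tumours. The part of these cells in the chemokine levels was not tested.

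**Figure D2:**
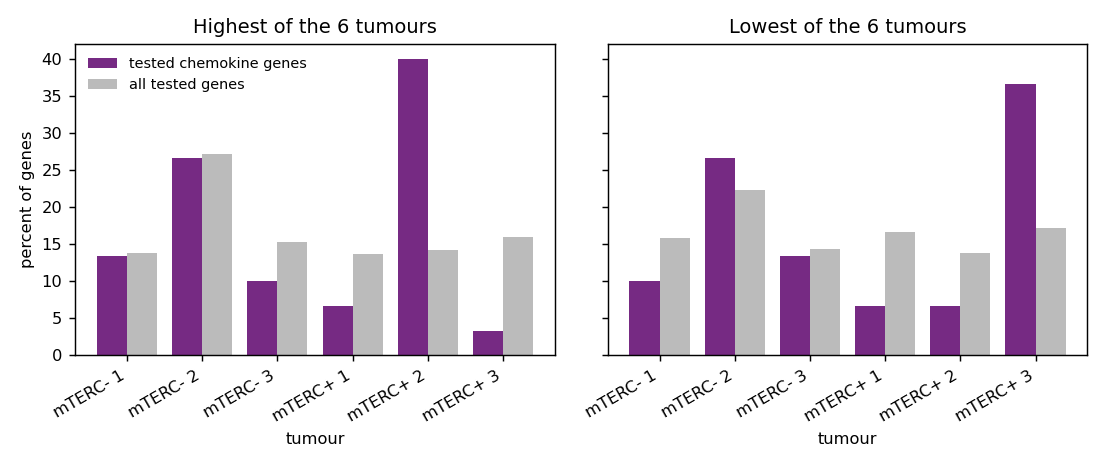
Percent of the 30 tested chemokine genes (purple) and of all 11980 tested genes (grey) whose level was the highest (left) or the lowest (right) of the 6 tumours in the tumour on the horizontal axis. Chemokine genes exceed all genes most clearly as highest in mTERC+ tumour 2, with 12 genes, and as lowest in mTERC+ tumour 3, with 11 genes.

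CC ligands grouped as monocyte-attracting had lower means in mTERC- tumours for 3 of 4 genes, and none passed. Ccl2 (Entrez Gene 20296, chromosome 11), also known as MCP-1, had a signal of 69.1, 79.9 and 32.2 in mTERC- tumours 1, 2 and 3 and of 234.6, 288 and 115.3 in mTERC+ tumours 1, 2 and 3. All of the mTERC- values lay below all of the mTERC+ values. The mean was 60.4 ± 25.0 against 212.6 ± 88.4 (SD, n = 3 each). In log2 this is -1.37 (SE 0.45), or 2.59-fold. In limma the adjusted p of Ccl2 was 0.906. Over the alternatives the difference of Ccl2 lay between -1.80 and -1.12 and kept its direction. Ccl7, a close relative, was at 36.5, 24.2 and 76.8 against 71.5, 184 and 64.9, and Ccl12 at 26.1, 119.5 and 56.4 against 78.7, 108.4 and 86.1. The groups overlapped for both. Ccl8 was at 247, 57.3 and 428.4 against 43.6, 819.8 and 8.3, so that the highest and the lowest tumour were both mTERC+. The level of Ccr2, the receptor of Ccl2, Ccl7 and Ccl12, was higher in mTERC- tumours. It was at 192.4, 254.1 and 145.9 against 106.4, 134.5 and 68.3, without overlap. In log2 it differed by 0.77 (SE 0.40), and limma gave an adjusted p of 0.953. The probe sets of Ccr2 do not give 1 answer: a second one without overlap had a log2 difference of -0.92, and the mean over all probe sets of the gene was -0.06.

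Ligands of the macrophage inflammatory protein type and the eotaxins had a lower mean in mTERC- tumours for 4 of 4 tested genes, with a median log2 difference of -1.06, and none passed. With no level filter it was 6 of 7 with a median of -0.89, and with probe sets averaged 3 of 4 with a median of -1.03. Ccl24 (Entrez Gene 56221, chromosome 5), an eosinophil attractant that signals through Ccr3, was at 17.5, 12.3 and 23.3 in mTERC- and 78.9, 168 and 93.4 in mTERC+ tumours. The groups did not overlap, and the mTERC- values lay below every array median. Ccl24 thus passed the level filter through the mTERC+ group, where it was high, and it is counted in the 4 of 4. The mean was 17.7 ± 5.50 against 113 ± 47.8 (SD, n = 3 each), which is -1.51 in log2 (SE 0.57), and limma gave an adjusted p of 0.953. Ccl3 (Entrez Gene 20302, chromosome 11), or MIP-1 alpha, was at 4.2, 9.1 and 6.1 in mTERC- and 56.7, 168.7 and 98.4 in mTERC+ tumours. It did not reach the level filter and so was not tested, and its groups did not overlap either, with a log2 difference of -1.79. Without the level filter the groups did not overlap for 5 of 50 members, against 10.4% of all genes. Its neighbour Ccl4 was also under the filter, at 38, 37.1 and 52.4 against 26.6, 82.2 and 5.5. Ccl5, or RANTES, which T cells and platelets carry, was at 86.3, 140.4 and 170.9 against 137, 690.8 and 182.6, with the mTERC+ tumour 2 value far above the other 5.

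Ccl9 and Ccl6 are CC ligands made by myeloid cells of mice. Ccl9 was bright in every tumour, at 8547, 1315 and 2003 in mTERC- and 4551, 7615 and 8781 in mTERC+ tumours. In mTERC- tumour 1 it was as bright as in the mTERC+ tumours, and the log2 difference of -1.24 (SE 0.54), for which limma gave an adjusted p of 0.953, rested on mTERC- tumours 2 and 3. Leaving out mTERC- tumour 2 gave -0.69, leaving out mTERC- tumour 1 gave -2.03, and with mTERC- tumours 2 and 3 both left out it was 0.34. Ccl6 was at 766.4, 313.2 and 594.5 against 655, 2455 and 118.6. The values of the mTERC+ tumours enclosed those of the mTERC- tumours. Without mTERC+ tumour 2 the group of inflammatory CC ligands had a lower mean for 3 of 4 genes, with a median of -0.70. Without mTERC- tumour 2 it was 3 of 4 with a median of -0.82, and without mTERC- tumours 2 and 3 it was 2 of 4 with a median of -0.50. Macrophage markers had a lower mean in mTERC- tumours for 13 of 13 tested genes, with a median log2 difference of -1.14, and none passed in limma. Among them Cybb, Mpeg1 and Cd68 were at -1.38, -1.05 and -1.48. Of 3 tested monocyte markers 2 went the other way without overlap, Itgam at 1.11 and Ccr2 at 0.77, where 5.75% of all genes were higher without overlap. Fcgr1 was at -0.50, and none of these passed in limma. Ccr2 is itself a member, and a second probe set of it without overlap was at -0.92. The part of macrophages and monocytes in the levels of Ccl2, Ccl3, Ccl9 and Ccl24 was not tested.

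Ccl11, another eotaxin, was below the array median on all 6 arrays, at 5.3 to 18.7. Its receptor Ccr3 was at 83.2, 11.9 and 4 against 6, 73.2 and 81.4 and was not tested. Ccr1, a receptor of Ccl3, Ccl5 and Ccl9, was at 133.4, 15.2 and 163.7 against 119.2, 87.4 and 55.4, with a log2 difference of -0.02 (SE 0.57). The groups overlapped for all 3 genes.

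**Figure D3:**
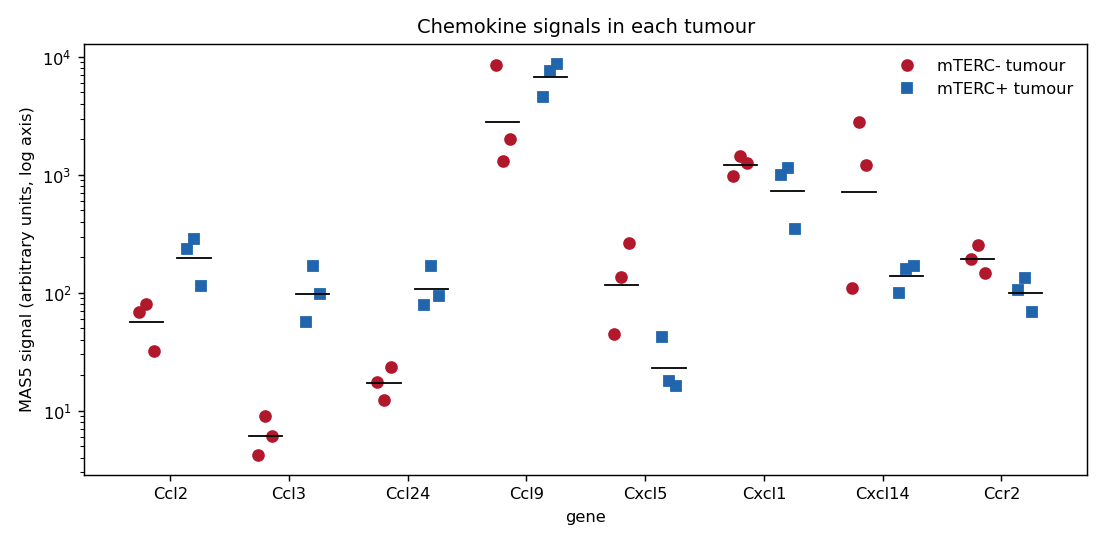
MAS5 signal on a log axis of 8 chemokine genes in the 3 mTERC- tumours (red circles) and the 3 mTERC+ tumours (blue squares), with a black bar at the geometric mean of each group. The groups do not overlap for Ccl2, Ccl3, Ccl24, Cxcl5 and Ccr2, and they overlap for Ccl9, Cxcl1 and Cxcl14.

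CXC ligands that attract neutrophils through the receptor Cxcr2 had a higher mean in mTERC- tumours for 3 of 3 tested genes, with a median log2 difference of 0.69, and none passed. It was 2 of 3 with quantile normalization, with a pseudocount of 64 and without mTERC- tumour 2, mTERC- tumour 3 or mTERC+ tumour 2, and the median was 0.18 without mTERC+ tumour 3. With no level filter 4 of 5 genes had a higher mean, and the median was 0.17. Cxcl5 (Entrez Gene 20311, chromosome 5), known as LIX, was at 44.8, 135.8 and 265.3 in mTERC- and 41.9, 18 and 16.2 in mTERC+ tumours. The groups did not overlap, with mTERC- tumour 1 just above the highest mTERC+ tumour. All of these values lay below the array medians apart from those of mTERC- tumours 2 and 3, the pair with the low 18S control. Cxcl5 thus passed the level filter through the mTERC- group, where it was high, and it is counted in the 3 of 3. The part of RNA quality or of the 18S level in Cxcl5 was not tested. The mean was 149 ± 111 against 25.4 ± 14.3 (SD, n = 3 each), which is 1.48 in log2 (SE 0.59), and limma gave an adjusted p of 0.953. It was 1.01 without mTERC- tumour 3 and 0.45 with mTERC- tumours 2 and 3 both left out. Cxcl1 (Entrez Gene 14825, chromosome 5), known as KC, was at 970.1, 1446 and 1268 against 996.7, 1143 and 349.6, a log2 difference of 0.69 (SE 0.42). The groups overlapped, and the lowest tumour was mTERC+ tumour 3. A second probe set of Cxcl1 had no overlap and a log2 difference of 0.96, and the remaining one had 0.41. Cxcl3 was at 28.1, 57.7 and 95.1 against 98.8, 22.6 and 62.6, a log2 difference of 0.01 (SE 0.58). Cxcl2, or MIP-2, was under the level filter at 8.8, 5.3 and 62.9 against 14.8, 61.8 and 6.5. Its receptor Cxcr2, which neutrophils carry, was at 42.8, 8.3 and 95.9 against 19.8, 72.6 and 7.2 and was not tested. Neutrophil markers had a higher mean in mTERC- tumours for 9 of 9 genes, and 1 of them, S100a8, passed in limma (adjusted p = 0.0246). Their summed signal was 55496, 39517 and 30158 in mTERC- tumours 1, 2 and 3 and 20502 to 30442 in mTERC+ tumours. Most of this sum was Lcn2, whose log2 difference was 0.04. The part of neutrophils in these ligand levels was not tested.

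Cxcl9, Cxcl10 and Cxcl11 are induced by interferon and draw T and NK cells through Cxcr3. The groups overlapped for all 3 genes. Cxcl9 was at 412.5, 590.4 and 743.4 in mTERC- and 551.2, 1306 and 392.4 in mTERC+ tumours, and the mTERC+ values enclosed the others. Cxcl10 was the steadiest of the group, at 177.5, 129.1 and 174.3 against 144, 140.8 and 115.6, a range of 0.51 on the log2 scale. Cxcl11, which RefSeq lists as a transcribed pseudogene in this strain, was at 75.4, 28.1 and 57.5 against 38, 95.5 and 43.5. Their receptor Cxcr3 was at 69.7, 165.7 and 78.4 against 81.1, 127.6 and 39.6, with a log2 difference of 0.26 (SE 0.49).

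Cxcl14, an epithelial chemokine with no agreed receptor, had the largest difference of the 30 members. Cxcl14 (Entrez Gene 57266, chromosome 13) was at 110.2 in mTERC- tumour 1, 2819 in mTERC- tumour 2 and 1205 in mTERC- tumour 3. In mTERC+ tumours it was at 100.1, 158.2 and 169.7. The group means were 1378 ± 1363 and 143 ± 37.3 (SD, n = 3 each), with a log2 difference of 2.21 (SE 0.76), or 4.63-fold. In limma the adjusted p of Cxcl14 was 0.934. The groups overlapped through mTERC- tumour 1 alone, which lay among the mTERC+ tumours. Without that tumour the log2 difference was 3.45 and the adjusted p 0.00769 in limma, the 1 setting in which a chemokine gene passed, and 6 genes in all passed then. The tumours that were high in Cxcl14 were the pair with the low 18S control, and with both left out the difference was -0.27. The part of RNA quality or of the 18S level in this gene was not tested. A second probe set of Cxcl14 was at 124.9, 297.5 and 734.1 against 41.6, 242 and 130.7, with a log2 difference of 1.20.

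Cxcl13, the ligand that gathers B cells through Cxcr5, had the widest range of the 30 members, 6.29 on the log2 scale. Its signal was 140.9, 606.7 and 452.5 in mTERC- tumours and 115.4, 5770 and 42.2 in mTERC+ tumours. The brightest and the dimmest tumour were thus both mTERC+, and a second probe set gave 5260 in mTERC+ tumour 2 and 11.5 in mTERC+ tumour 3. The log2 difference was -0.08 (SE 1.11), and 1.85 without mTERC+ tumour 2. Cxcr5 was under the level filter, at 5.2, 19.7 and 5.5 against 8.1, 90.3 and 10.7, and its only value above an array median was also in mTERC+ tumour 2.

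Cxcl12, which holds leukocytes and stem cells in place through Cxcr4, was at 659.1, 624.9 and 374.9 against 630.9, 1026 and 441.4, and its tested probe sets had log2 differences of opposite sign, -0.28 and 0.22. Cxcr4 was at 118.6, 72.8 and 138.3 against 199.1, 118.3 and 141.3, with a log2 difference of -0.39 (SE 0.41). Cxcl16, a membrane-bound ligand of NKT and T cells, was at 667.5, 726.8 and 759.5 against 894.6, 1435 and 644.9. Both ligands were highest in mTERC+ tumour 2, and the groups overlapped in each. Cxcr6, the receptor of Cxcl16, was at 65.9, 148.8 and 38.4 against 36.4, 57.2 and 85.6. Cx3cl1, or fractalkine, was at 72.8, 311.3 and 211.2 against 129.3, 85.1 and 27, with a log2 difference of 0.99 (SE 0.53), while a second probe set of it had -0.15. Its receptor Cx3cr1, found on monocytes and macrophages, was at 91.5, 251.3 and 213.8 against 265.4, 304.4 and 116.3.

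Ccl20, which attracts Ccr6-bearing lymphocytes and dendritic cells, stood out in a single tumour. It was at 341.8 in mTERC- tumour 1 and at 22.5 to 52.5 in the other 5, and without that tumour the log2 difference went from 0.76 to -0.05. Ccr6 was at 58.7, 55.3 and 109.2 against 84.7, 57.7 and 70.5. Ccl25 and Ccl27a, known from gut, thymus and skin, had log2 differences of 0.00 and 0.05. Ccr9, the receptor of Ccl25, had 0.07. Of the 50 genes 8 stayed below the array median on all 6 tumour arrays, which were Ccl1, Ccl11, Ccl22, Xcl1 and the receptors Ccr7, Ccr8, Ccr10 and Xcr1. Ccr7, a receptor that guides cells to lymph nodes, was at 5.5, 27.6 and 11.6 against 19.1, 12 and 52.8. Xcl1, a ligand of T and NK cells, was at 6.8, 69.1 and 7 against 10, 45.1 and 51.6, and its receptor Xcr1 at 7.1, 6.7 and 4 against 4.1, 36 and 51. The remaining members under the level filter, Ccl17, Ccl28, Cxcl15, Cxcl17, Ccr1l1 and Ccr4, had log2 differences between -0.69 and 0.75. Ccl17 was at 82.1 and 80.7 in mTERC- tumours 1 and 2 and 5.4 to 50.8 in the other 4. Cxcl17 was at 241.3 in mTERC- tumour 2 and 12.5 to 34.8 elsewhere. At the other end, 13 genes were at or above the median on all 6 arrays.

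Genes that act around the chemokines gave the same picture of no call. Of 10 tested atypical receptors and related ligands, 6 had a lower and 4 a higher mean in mTERC- tumours, and 0 passed in limma. Rarres2, which codes for chemerin, was the member of that list without overlap, at 11718, 4619 and 9237 against 16936, 13814 and 16223. Of 21 tested inducers of chemokines, 13 had a lower mean and 0 passed in limma, and the groups did not overlap for 3 of the 21, Nfkb2, Rela and Tlr9, all lower in mTERC- tumours, where 4.39% of all genes were lower without overlap and 10.1% were without overlap in either direction. Rela, the p65 subunit of NF-kB, was at 808.7, 281.1 and 833.8 against 887.9, 990.3 and 1223. Of 23 tested genes of signalling below the receptors, 14 had a lower and 9 a higher mean, and 0 passed in limma. Gnai2, the G protein subunit that couples to chemokine receptors, was at 1089, 863.2 and 984.7 against 1505, 1502 and 1494. Rgs16, which shuts such G proteins off, was at 459.9, 625.4 and 1341 against 218.5, 266.8 and 362.7. The groups did not overlap for 4 of the 23, against 10.1% of all genes, which were Gnai2 and Arrb1, lower in mTERC- tumours, and Rgs16 and Gnb1, higher. Arrb1, which codes for a beta-arrestin, was at 221.9, 85.4 and 190.4 against 304.6, 229.5 and 306.8, and Gnb1, a G protein beta subunit, at 715.1, 1055 and 1026 against 545.8, 451.8 and 578.1. Of 9 tested enzymes that process chemokines 5 had a lower mean, 0 passed in limma, and Mmp9, which trims Cxcl5 among others, was without overlap at 100.6, 142.1 and 148.8 against 71.3, 74.3 and 16.5. The median log2 differences of these 4 lists were -0.01, -0.13, -0.23 and -0.25, against 0.02 over all genes tested.

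The other comparison set the TRF2DBDM pool against the GFP pool, both of p53-/- liver. There was 1 pooled array per group, so no test was made and the values below carry no error. Of the 49 genes 17 reached the median of an array in at least 1 pool and were compared. In the TRF2DBDM pool 12 of the 17 were higher, against 52.0% of the 7789 genes compared, and the median log2 ratio was 0.32, against 0.02 over all genes. Of the 12, however, 5 (Ccl3, Ccr4, Ccr6, Cxcr6 and Cxcl17) were compared only because they reached the median in the TRF2DBDM pool, so the filter fixed their direction, and none entered through the GFP pool alone. Among the 12 members at or above the median in both pools 7 were higher, against 51.4% of 6575 genes, with a median log2 ratio of 0.16, against 0.01 over all genes. A ratio of at least 2 in that direction was seen for 2 of the 17, against 4.62% of all genes, and 1 was at least 2-fold lower, against 2.90%. In both pools at or above the median these were 1 and 1 of 12, against 3.53% and 2.31%.

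The interferon-inducible neighbours Cxcl9 and Cxcl10 lay at opposite ends of the members. Cxcl9 had a signal of 262.2 in the TRF2DBDM and 89.2 in the GFP pool, a log2 ratio of 1.28 or 2.43-fold. Cxcl10 was at 196.7 against 442.2, a log2 ratio of -1.05, or 2.07-fold in favour of the GFP pool. Their relative Cxcl11 was below both array medians, at 43.2 and 38.4. The genes Cxcl9, Cxcl10 and Cxcl11 follow each other on chromosome 5 and share the receptor Cxcr3, which was below the medians as well, at 34.4 and 42. Cxcl1 was at 204.3 against 380.4, a log2 ratio of -0.80. Of 13 compared inducers of chemokines 12 were lower in the TRF2DBDM pool and 1 was higher, with a median log2 ratio of -0.23 against 0.02 over all genes. Of the 13, 2 were compared through the GFP pool alone, where the filter favours a lower TRF2DBDM value. These were Il1b, at 43.2 against 86.8, and Il17a, at 38 against 47.3. Of the other 11, 10 were lower. Nfkb2 was at 72.9 against 202.1, Irf1 at 340.5 against 540.4 and Myd88 at 219.3 against 354.2, while Rela was at 595.9 and 595.5. The part of the inducers in the chemokine values was not tested.

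No compared CC ligand reached a ratio of 2 in either direction. Ccl2 was at 370.1 in the TRF2DBDM and 455.1 in the GFP pool, Ccl7 at 131.3 against 104.9 and Ccl8 at 62.2 against 66. Of the inflammatory CC ligands, the 4 at or above the median in both pools were higher in the TRF2DBDM pool, by log2 ratios of 0.13 to 0.55, and Ccl3, at 57 against 23.6, was compared through the TRF2DBDM pool alone. Ccl4 at 112.9 against 83.9, Ccl5 at 186.3 against 158.6, Ccl6 at 264.8 against 170.4 and Ccl9 at 1276 against 1163. Cxcl12 was at 479.9 against 346.4 and Cxcl16 at 232.1 against 299.5. Among receptors, Ccr4 was at 61 against 12.6, a log2 ratio of 1.06, Ccr6 at 54 against 24.3 and Cxcr6 at 55.7 against 25.9, each above an array median in the TRF2DBDM pool alone. Cxcl17 was at 98.5 against 42.1. The other 32 genes on this array were below both medians, among them Cxcl5, Cxcl13 and Ccl24, at 2 to 44.6. Of 9 macrophage markers at or above the median in both pools 7 were higher with TRF2DBDM and 2 lower, the median of their log2 ratios was 1.16, and their part in these ligand values was not tested.

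Between the data sets, 13 members were both tested in tumours and compared in the adenovirus pair. Of these 2 were higher and 2 lower in both mTERC- tumours and the TRF2DBDM pool, 6 were lower in mTERC- tumours and higher in the TRF2DBDM pool, and 3 the other way round. Both genes higher in each, Ccr6 and Cxcr6, were compared through the TRF2DBDM pool alone. Cxcl1 had log2 values of 0.69 in the tumours and -0.80 in the pair, Cxcl9 of -0.21 and 1.28, and Cxcl10 of 0.21 and -1.05. The probe set of Cxcl1 read in the pair had a log2 difference of 0.41 in the tumours. Cxcl12, counted as lower in mTERC- tumours at -0.28, was also read by another probe set in the pair, at 0.44. That probe set had 0.22 in the tumours, so by it Cxcl12 was higher in both. The arrays are of different kinds and no test links the comparisons.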

How the data were processed

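RNA of 6 tumours and of 2 pools of adenovirus-infected liver was measured on 2 kinds of Affymetrix array, with cRNA made from 6 microg of total RNA, per the labels. The deposited values are linear MAS5 intensity values (signals), as the submitters' processing notes name them, with no version given in the sources used here. The mean without the lowest and highest 2% was 150 on each array, so the authors' scaling was kept. Members were found by symbol in the platform annotation. Where a gene had several probe sets, the one with the highest mean level stood for it. For the tumours the genes at or above the median level were fitted with limma 3.58.1 in R 4.3.3 (variance trend, two-sided, Benjamini-Hochberg over all genes), and the code was tested on simulated data. The labels name individual tumours, and an array gives no count of molecules, so precision is limited by their number. Of the members, those past the threshold, without overlap, among the 6 widest ranges or on set ligand-receptor axes, and every adenovirus ratio of at least 2, were given in each array. Members, lists and rules were chosen with earlier results of these data known. The alternatives were quantile normalization, pseudocounts of 1 and 64, no level filter, a filter at percentile 75, the mean of probe sets, every probe set, no variance trend, a Y-linked covariate and left-out tumours.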

Additional observations from a re-analysis of the deposited data

How the results depend on the processing

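The count of members past the threshold in the tumours was 0 under all alternatives apart from those that left out 1 tumour, where it was 0 to 1. Leaving out 1 tumour at a time gave 5 to 8 members without overlap (18.2% to 23.2% of all genes), a median log2 difference of the members of -0.20 to 0.11, and 0 to 6 genes past the threshold over all genes. Without mTERC- tumours 2 and 3 together, 13 members were without overlap (48.9% of all genes) and 0 genes passed in limma. With the filter at percentile 75, 16 members were tested, of which 1 was without overlap, the median was -0.14 and 0 genes passed. With the Y-linked covariate the median was -0.16, and 0 genes passed with it, with a pseudocount of 1, with probe sets averaged and with no variance trend. Directions turned as follows, all without a call, and the cause was not tested. With probe sets averaged Ccr2 was at -0.060, Cxcl13 at 0.13 and Ccl6 at 0.30. A pseudocount of 1 gave 0.14 for Cxcl13, the Y-linked covariate -0.13 for Ccl8, and leaving out mTERC- tumours 2 and 3 gave -0.27 for Cxcl14, 0.34 for Ccl9 and 0.33 for Ccl6. Leaving out 1 tumour at a time gave a range of -1.30 to 1.85 for Cxcl13 (both ends without an mTERC+ tumour, 3 and 2), -0.17 to 2.03 for Ccl8 (3 and 2), -1.23 to 0.79 for Ccl6 (3 and 2, and 0.15 without mTERC- tumour 2) and -0.055 to 1.33 for Ccl20 (without mTERC- tumours 1 and 3). Cxcl13 was at 0.48 without mTERC- tumour 1. Ccl2, Ccl24 and Cxcl5 kept their direction in all 15 alternatives in which they had a value.

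In the adenovirus pair, 6 members were at least 2-fold higher with a pseudocount of 1, where the median log2 ratio was 0.42. With a pseudocount of 64 there were 1 higher and 0 lower, and quantile normalization gave 1 higher. The filter at percentile 75 left 1 higher with a median of 0.13, and with no level filter the median was 0.20. Among genes at or above the median in both pools, an alternative chosen after seeing the data, 1 was higher with a median of 0.16. The ratio of Cxcl9 stayed at least 2 in the other 7 alternatives. Also chosen after seeing the data was the count of members highest in mTERC+ tumour 2, which was 16 of 50 with no level filter, 8 of 16 with the filter at percentile 75, 11 of 26 with probe sets averaged, 18 of 44 over every probe set, 13 of 30 with quantile normalization and 14 of 30 without the array of mTERC- tumour 2 (all genes 19.4%). No paired analysis was possible because the labels give the tumours no shared replicate numbers. Low signals limit the receptors, since 9 of 17 were under the level filter.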
